A study of Macaca fascicularis and Mus musculus with 42 samples.

Results

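Cells with little or no PRDM1 RNA were compared with PRDM1- and TFAP2C-positive cells sorted on the same days, during induction of cynomolgus monkey (Macaca fascicularis) embryonic stem cells (ESC) towards primordial germ cell-like cells (PGCLC). The 4 PRDM1-low libraries were chosen by a rule, PRDM1 under 50 RPM and SOX2 under 200 RPM in cells induced in GK15 or aRB27 medium, out of 28 induced monkey libraries and 42 libraries in the series. RPM give a gene's reads relative to all reads of its library, scaled to the same total in each. The comparison set was 6 double-positive libraries of days 2 and 4.

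All 10 libraries came from 1 reporter line, 656BTAG42, which carries the reporters Blimp1-tdTomato and TFAP2C-EGFP, the controls included. Blimp1 is the protein encoded by PRDM1. BT and AG are read here, from these names, as the tdTomato and the EGFP reporter. Aggregates in V-bottom plates received BMP4, SCF, EGF, LIF and Y27632 in GK15 medium (GMEM with the serum replacement KSR) or aRB27 medium (an RPMI base with B27). Cells were sorted on day 2 or day 4 as BTAG positive or AG mid positive, and bulk RNA was sequenced at transcript 3′ ends. The PRDM1-low set holds 1 library labelled AG mid of day 2 in aRB27 and 1 labelled AG mid of day 4 in GK15. Its other 2 libraries, GK15 BTAG d2 replicate 2 and GK15 BTAG d4 replicate 2, are labelled double-positive and contradict their gate. The double-positive set holds 4 aRB27 libraries, 2 of each day, and 1 GK15 library of each day. The labels name neither separate cultures nor replicate numbers, and the replicate numbers used here only name libraries of a group in accession order. The p-values below therefore cover the spread among libraries only, which may be technical.

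Primate primordial germ cells form under BMP signals and switch on SOX17, TFAP2C and PRDM1, which together set up the germ cell program. BMP acts through SMAD proteins and induces ID and MSX genes along with its own inhibitors. The same ligand also drives pluripotent cells towards amnion and extraembryonic mesoderm, whose cells share TFAP2 and GATA factors with early germ cells.

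PRDM1 was 4.9 RPM in GK15 BTAG d2 replicate 2, 11.1 in aRB27 AG mid d2, 0.9 in GK15 AG mid d4 and 0 in GK15 BTAG d4 replicate 2. In the 6 double-positive libraries it ranged from 161 to 318 RPM. These levels chose the members and are no finding. Nearest to the limit were 11.1 RPM inside and 85.1 RPM outside, the latter in a BT single positive library of day 2. SOX2, the other gene of the rule, was 109.8, 33.4, 23.9 and 0.38 RPM in the members, in the same order, and 2.92 to 39.5 RPM in the double-positive set. An induced library with 0.5 RPM of PRDM1 (GK15 BTAG d6) was left out because its SOX2 was 394 RPM, within the range of ESC. Conversely, the libraries labelled GK15 AG mid d2 replicate 1 and GK15 AG mid d4 replicate 2 held 194 and 145 RPM of PRDM1 and are in neither set. In all, 5 induced libraries went against their gate. Of the reporter ESC libraries, 1 held 252.5 RPM of PRDM1 and 16.8 RPM of SOX2, against its label, and is left out of the ESC ranges below. Apart from GK15 BTAG d6, the contradicting libraries carry consecutive numbers in their titles, with this ESC library first. The reason was not tested. Whether the day and medium of the contradicting members are as labelled cannot be told apart from these files, so counts and calls are also given without them where these change.

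**Figure D1:**
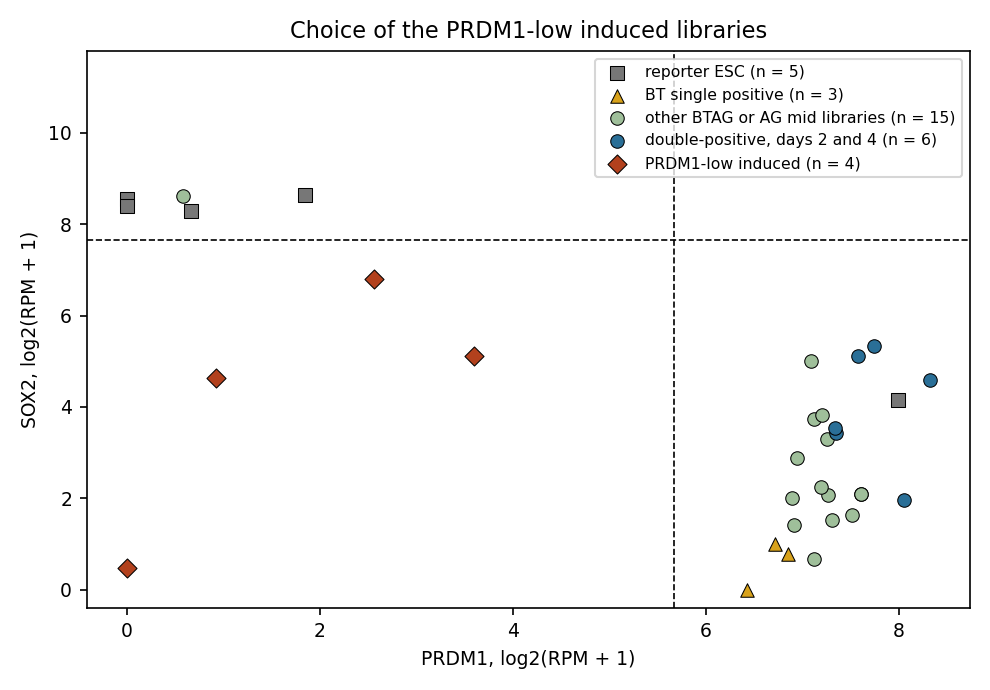
PRDM1 against SOX2, both as log2(RPM + 1), in the 33 libraries of the reporter lines, with dashed lines at 50 and 200 RPM. The 4 PRDM1-low libraries (diamonds) sit at or under 11.1 RPM of PRDM1, and the 6 double-positive libraries (dark circles) at or above 161 RPM.

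Depth was 2.41 to 6.66 M reads in the PRDM1-low set and 1.6 to 5.97 M reads in the double-positive set, so a single read stood for 0.149 to 0.623 RPM. Between 13619 and 16052 genes were detected per library. Across genes, log2 levels of the PRDM1-low libraries correlated with each other at 0.84 to 0.962. The highest of these values was between the day 2 libraries (aRB27 AG mid and GK15 BTAG replicate 2). Pairs within the double-positive set reached 0.89 to 0.965, and pairs between the sets 0.647 to 0.858. Genes are not independent replicates and all libraries share a line, so these values are descriptions. Below, levels of the PRDM1-low libraries are listed in the order GK15 BTAG d2 replicate 2, aRB27 AG mid d2, GK15 AG mid d4, GK15 BTAG d4 replicate 2.

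Genes entered when 2 or more of the 10 libraries held 10 RPM or more, and of these 9917 genes 593 were higher and 500 lower in PRDM1-low cells. Such a gene differed by a log2 value of at least 1 on the log2(RPM + 1) scale, and no PRDM1-low library overlapped a double-positive one. The shares, 5.98% higher and 5.04% lower, are the background for every gene list below. Some list members passed the filter only through the set where they were high. MEIS2, PRRX1, HAND2 and TBX20 passed only through PRDM1-low libraries, and OTX2 and NANOS3 only through double-positive ones. Such genes could be counted in that direction only, and the list medians share this limit. Because PRDM1 in these same libraries chose the members, this contrast is described without a p-value, and nothing is read from a list's count against the background. Log2 differences are limma estimates ± SE over 4 against 6 libraries. In bulk RNA, fewer cells of a type and less RNA per cell cannot be told apart. Without the members labelled BTAG the counts were 591 higher and 597 lower of 9564 genes (6.18% and 6.24%). The median log2 difference over all genes was 0.045.

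The 4 genes named as markers of these cells behaved differently from each other. CXCL12, a chemokine that attracts CXCR4-bearing cells, was 2114, 1227, 1766 and 1929 RPM in the PRDM1-low libraries and 0.58 to 45.6 RPM in the double-positive ones, a log2 difference of 7.92 ± 0.77. BMP4, the ligand also supplied in the medium as protein, was 263, 295, 285 and 496 RPM against 0 to 2.33 RPM (7.57 ± 0.32). Both genes were high in every PRDM1-low library with no overlap. CXCL12 was 61.4 to 123 RPM and BMP4 3.88 to 26.4 RPM in the 4 reporter ESC libraries with little PRDM1, so each was above the ESC range too. RGS5, a regulator of G-protein signalling used as a pericyte marker, was 70.3, 54.9, 994 and 258 RPM against 0.62 to 39.2 RPM (5.01 ± 0.98). It did not overlap, but its day 4 levels stood apart from those of day 2. The 3 BT single positive libraries held 27.1 to 126.8 RPM of RGS5, a range that includes its day 2 levels. TGFBI, a secreted matrix protein induced by TGF-beta, was 7.34 and 4.95 RPM on day 2 and 1577 and 538 RPM on day 4, against 1.25 to 5.33 RPM. It therefore overlapped the double-positive range on day 2, and the data go against TGFBI as a marker of all 4 libraries.

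**Figure D2:**
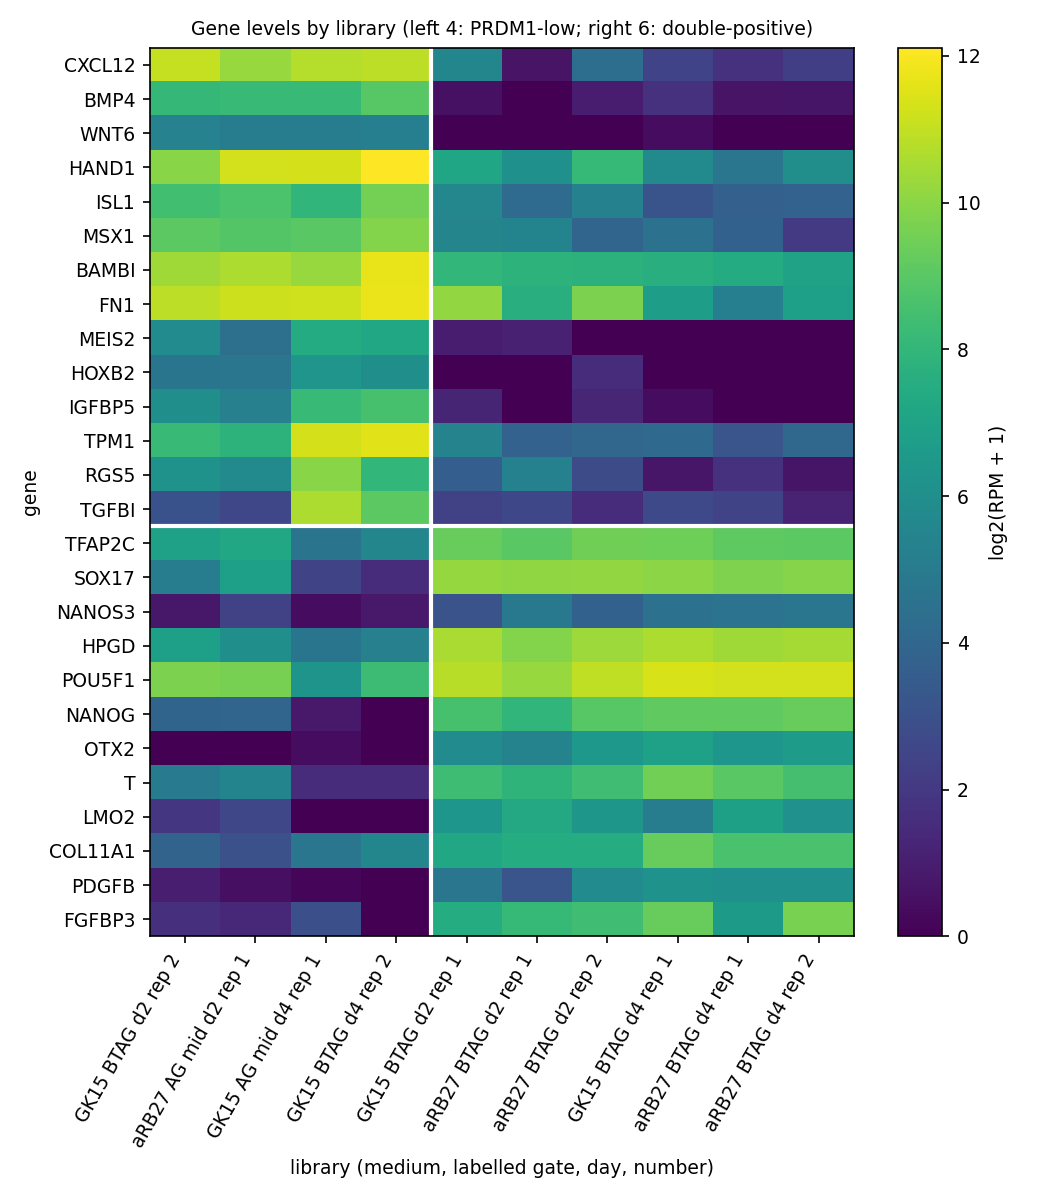
Levels of 26 genes as log2(RPM + 1) by color, with the 4 PRDM1-low libraries to the left of the white line and the 6 double-positive libraries to the right. CXCL12 and BMP4 are high in all 4 libraries on the left, TGFBI only in the day 4 libraries, and SOX17, NANOG and HPGD are high on the right.

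Genes of the germ cell program were low but not all absent. TFAP2C, the gene behind the AG reporter and a germ cell and amnion factor, was 119.6, 146, 24.4 and 45.8 RPM against 521 to 705 RPM (log2 difference -3.15 ± 0.40). Every PRDM1-low library lay below every double-positive library, yet above the 2.94 to 14.2 RPM of the ESC libraries with little PRDM1. SOX17, the transcription factor that specifies primate germ cells, was 33.2, 114, 4.63 and 1.89 RPM against 859.7 to 1190.1 RPM (-6.03 ± 0.79). HPGD, which breaks down prostaglandins, was 112.6, 64.8, 25.2 and 37.5 RPM against 944 to 1579 RPM (-4.67 ± 0.33). NANOS3, an RNA-binding factor of germ cell survival, reached at most 4.13 RPM against 7.44 to 29.2 RPM (-3.21 ± 0.47). Of the 16 genes on the germ cell list, 15 passed the filter and 9 were lower, 0 were higher and the median was -2.64. PRDM1 is 1 of the 9, and SOX17, TFAP2C and NANOS3 are factors known to act with it, so the list is not independent of the rule. KIT and CXCR4, receptors of migrating germ cells, overlapped between the sets: KIT was 18.2 to 56.3 RPM against 20.5 to 214 RPM, and CXCR4 26.8 to 123 RPM against 11.2 to 216 RPM.

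The core pluripotency genes split. NANOG, a homeobox factor of pluripotent and germ cells, was 14, 14.4, 0.75 and 0 RPM against 247 to 620 RPM (-6.69 ± 0.70). POU5F1, which encodes OCT4, was 832, 792, 75.9 and 315 RPM against 1219 to 2703 RPM (-2.52 ± 0.55). In both genes the day 2 libraries held more than the day 4 libraries. DPPA4 and L1TD1, also active in pluripotent cells, were lower by -1.79 ± 0.43 and -1.70 ± 0.41 on the log2 scale. LIN28A, an inhibitor of let-7 processing, overlapped, at 1078 to 1382 RPM against 895 to 1571 RPM. The list had 4 of 9 measured members lower, none higher and a median of -1.33. OTX2, a factor of primed epiblast and anterior neural tissue, was 0, 0, 0.3 and 0 RPM against 42.1 to 122 RPM. T (brachyury), a primitive streak factor that primate PGCLC also express, was 30.1, 42.9, 1.94 and 1.89 RPM against 231 to 730 RPM (-5.24 ± 0.73). MIXL1, another streak gene, was lower as well (-2.50 ± 0.59), while EOMES overlapped at 1.14 to 144 RPM against 12.1 to 138 RPM.

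Transcription factors of lateral and extraembryonic mesoderm were among the genes higher in PRDM1-low cells. HAND1, a helix-loop-helix factor of extraembryonic mesoderm, was 1011, 2459, 2541 and 4427 RPM against 25.9 to 278 RPM (4.86 ± 0.57). MEIS2, a cofactor of HOX proteins, was 57.4, 21.4, 173 and 148 RPM and at most 1.17 RPM in the double-positive set (5.91 ± 0.56). PRRX1, a homeobox factor of mesenchyme, was 9.79, 21.9, 160 and 245 RPM against 0 to 1.67 RPM, and HAND2 was 9.79, 21.9, 116.7 and 119.6 RPM against 0 to 3.45 RPM. The list of such factors had 7 of 15 measured members higher, 0 lower and a median of 3.53. The others counted were TBX20, MSX1 and MEIS1, and further members that differed by more than the fold overlapped between the sets. The BT single positive libraries held 1.99 to 33.1 RPM of HAND2 and 4.98 to 47 RPM of TBX20, ranges that include some PRDM1-low levels. For HAND1, MEIS2 and PRRX1 they held at most 153, 3.76 and 1.71 RPM, below every PRDM1-low library. Some listed factors stayed near the floor: OSR1 was under 1 RPM in all PRDM1-low libraries, and FOXF1 and TCF21 exceeded 5 RPM only in GK15 BTAG d4 replicate 2.

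Genes of amnion, the epithelium around the embryo, had 7 of 14 measured members higher, 0 lower and a median of 2.90. ISL1, a LIM homeobox factor, was 343, 415, 253 and 766 RPM against 7.83 to 48.4 RPM (4.37 ± 0.47). TFAP2A, which is related to TFAP2C, was 345, 289.6, 266 and 243 RPM against 9.93 to 92.5 RPM (3.10 ± 0.46). WNT6, a secreted ligand, was 40.9, 34.2, 34.2 and 36 RPM, and 5 of 6 double-positive libraries held no read of it. GABRP, a GABA receptor subunit, was 0 in all double-positive libraries and averaged 30.1 RPM in PRDM1-low cells, at least 152-fold higher (floor of 3 reads over the 6 libraries together, which covers counting error only). Its level was 0.7 and 1.24 RPM on day 2 and 72.9 and 45.4 RPM on day 4. HAND1 is on both this list and the mesoderm list, and TFAP2A is on the neural crest list as well. GATA3, a factor of amnion and of early germ cells, overlapped (271 to 533 against 185 to 326 RPM). Of 7 trophoblast genes, 2 passed the filter. PGF, a placental growth factor, was higher (6.29, 19.8, 17.6 and 83.2 RPM against 0 to 4.67 RPM), and SDC1 was lower. ELF5 and SIGLEC6 were at 0 in all 4 libraries, and the 7 genes summed to 18.5 to 97.2 RPM against 18.4 to 37.4 RPM.

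HOX genes, which pattern the body axis, had 14 of 33 listed HOX and CDX genes past the filter, with 5 higher, 0 lower and a median of 2.21. HOXB2 was 25.2, 26, 77.4 and 63.9 RPM and was detected in only 1 double-positive library, at 1.95 RPM. HOXB6 was 5.6, 28.9, 64.8 and 196 RPM against 0 to 1.83 RPM. Thus members of anterior and of more posterior position in the clusters were detected, HOXA11 among them at 8.37 to 65.1 RPM against 0 to 5.33 RPM.

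BMP signalling genes differed at several levels of the pathway. Among ligands, BMP7 was 30.4, 28.5, 72.2 and 43.1 RPM against 2.88 to 19.3 RPM besides BMP4, and GDF6 was 2.1, 5.36, 26 and 43.9 RPM against at most 0.17 RPM. The receptors BMPR1A and BMPR2 overlapped, at 147 to 252 and 95.5 to 476 RPM against 102.3 to 209.6 and 88.1 to 146 RPM. Several targets were higher in every PRDM1-low library. ID2, an inhibitor of helix-loop-helix factors, was 1241 to 2117 RPM against 223 to 540.3 RPM, ID3 was 1045 to 1343 RPM against 283 to 568 RPM, and ID4 was 225 to 637 RPM against 28.2 to 119.4 RPM. MSX1, a homeobox target, was 528, 467, 514 and 939.96 RPM against 3.11 to 45.1 RPM (4.98 ± 0.57). Of 9 targets, 6 were higher and none lower, with a median of 1.95. ID1 overlapped, at 276 to 379 RPM against 198 to 319.6 RPM.

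Inhibitors of the pathway went in both directions. BAMBI, a decoy receptor, was 1350.2, 1588, 1209 and 3397 RPM against 125 to 255 RPM (3.14 ± 0.28), and SMAD6, an intracellular inhibitor, was higher by 2.09 ± 0.29. FST, which binds activin and BMP, was 609.9, 781, 116 and 126 RPM against 0.58 to 42.3 RPM. In contrast SOSTDC1, a secreted antagonist, was 0, 0, 0.3 and 0 RPM against 4.09 to 189 RPM. GREM1, also secreted, overlapped because it was 63 and 196 RPM on day 2 but 2.24 and 3.78 RPM on day 4, against 101.1 to 330.04 RPM. In total 6 of 14 measured ligands, receptors and antagonists were higher and 1 lower. BAMBI and SMAD6 are also counted among the higher BMP targets, and MSX1 among both the targets and the mesoderm factors, so these lists are not separate.

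**Figure D3:**
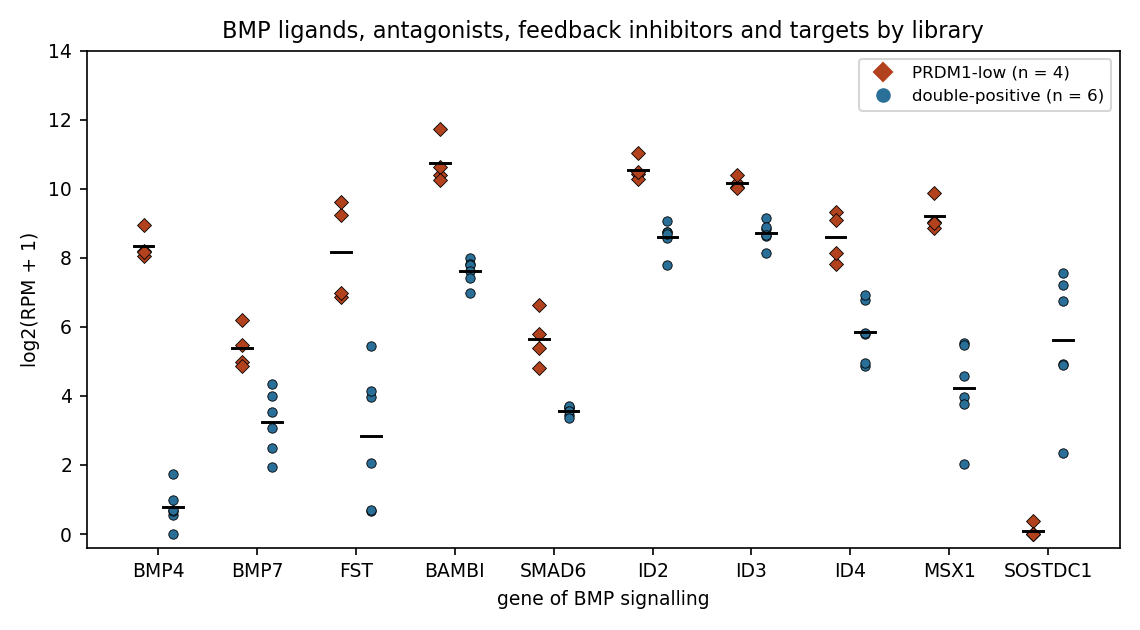
Log2(RPM + 1) of 10 genes of BMP signalling in each library, with diamonds for the 4 PRDM1-low and circles for the 6 double-positive libraries and short bars for the means of log2 values. The 9 genes from BMP4 to MSX1 do not overlap and are higher in PRDM1-low cells, and SOSTDC1 is at or under 0.3 RPM in them.

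Other signalling lists were mixed. LEF1, a nuclear effector of WNT signalling, was 57.7, 57.4, 247 and 116 RPM against 1.87 to 21.6 RPM. DKK1 and SFRP1, secreted WNT antagonists, were higher (3.70 ± 0.70 and 2.61 ± 0.46) while the antagonist DKK4 and the ligand WNT3 were lower (-3.62 ± 0.66 and -1.53 ± 0.31). WNT genes gave 4 higher and 2 lower of 12 measured. ETV4, ETV5 and SPRY1, which are induced by FGF and ERK signals, were lower by -2.89 ± 0.27, -2.04 ± 0.29 and -1.36 ± 0.35, and these 3 were the members counted as lower among 9, with 0 higher. PDGFB, a growth factor for mesenchyme, was at most 1.05 RPM against 8.18 to 73.2 RPM, whereas its receptors PDGFRB and PDGFRA were higher. PDGFRA was 13.6, 23.5, 10.46 and 110.1 RPM against 0.97 to 9 RPM. IGFBP5, which binds insulin-like growth factors, was 63.7, 37.1, 289 and 384 RPM against at most 1.46 RPM (6.51 ± 0.63). The list of chemokine and growth factor genes had 7 of 15 measured members higher and 1 lower, and TGF-beta and NODAL genes 2 of 8 higher (TGFBR2 and LTBP1).

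Matrix, mesenchymal and epithelial lists each held some genes that were higher, though most members were not. FN1, the matrix protein fibronectin, was 1924, 2372, 2419 and 3486 RPM against 36.3 to 1133 RPM (3.56 ± 0.80). SPARC and the laminin chains LAMB1 and LAMC1 were higher too, and LAMA1 was 21, 5.36, 221 and 345 RPM against at most 1.87 RPM (5.23 ± 0.95). Of 15 measured matrix genes 7 were higher and 1, EFEMP1, was lower. Among collagens COL6A1 and COL18A1 were higher, and COL11A1 was lower at 7.01 to 45.8 RPM against 146 to 619 RPM.

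CDH11, a cadherin of mesenchyme, was 235, 378, 552 and 928 RPM against 9.34 to 32.5 RPM (4.5 ± 0.43). SNAI2 and ZEB2, repressors of epithelial genes, were higher by 3.09 ± 0.61 and 4.19 ± 0.50, but CDH2 was lower, at 67 to 156 RPM against 250.3 to 585 RPM, and VIM overlapped. Of 14 measured mesenchymal genes, 5 were higher and 1 lower. TPM1, an actin-binding tropomyosin, was 283 and 229 RPM on day 2 and 2537 and 3034 RPM on day 4, against 8.06 to 41.4 RPM (5.62 ± 0.72). With RGS5, MCAM and ANGPT1 it made up the 4 of 10 measured mural and contractile genes that were higher. Keratins of simple epithelia were higher as well: KRT18 was 931, 654, 4229 and 3463 RPM against 119 to 360.3 RPM (3.11 ± 0.52), and KRT8 370.1 to 1527 RPM against 62.2 to 195 RPM. CDH3 and EPCAM, adhesion proteins of epithelia, completed the 4 of 10 on the epithelial list.

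**Figure D4:**
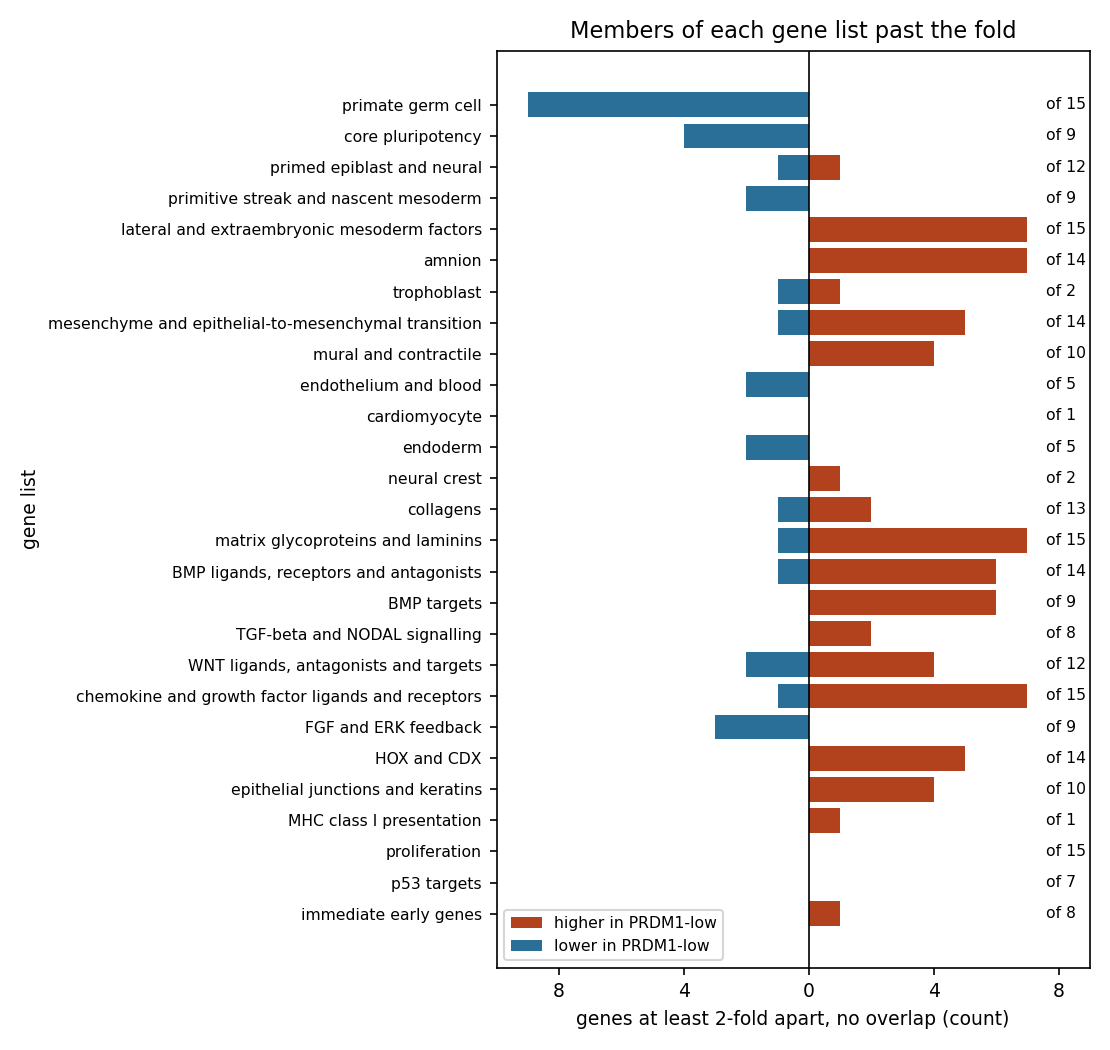
Number of genes per list that were at least 2-fold apart with no overlap, higher to the right and lower to the left in the 4 PRDM1-low against the 6 double-positive libraries, with the number measured at the right edge. Germ cell genes have 9 of 15 to the left, and mesoderm factors 7 of 15 and amnion genes 7 of 14 to the right.

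Many markers of other cell types that the gate could hold were under 5 RPM or at 0. Of 15 endothelial and blood genes 12 were under 5 RPM in every PRDM1-low library, with ERG, HBZ and HBE1 at 0, and the list summed to 36.7 to 200.98 RPM against 66.3 to 291 RPM. KDR, TEK and RUNX1 were the listed genes not under 5 RPM throughout, and levels of KDR and TEK are given at the end. Of the 5 measured genes 0 were higher, CDH5 and LMO2 were lower, and the median log2 difference was 1.37. LMO2, a blood and endothelial cofactor, was at most 4.95 RPM against 34.3 to 155 RPM. Of 15 endoderm genes 9 were under 5 RPM, and FOXA2 was 0 in all 4 libraries and averaged 19.4 RPM in the double-positive set, at least 94.1-fold lower (3 reads over the 4 libraries). Among neural crest genes SOX10, FOXD3 and PAX3 were under 5 RPM, so the summed level of that list (292 to 361 against 12.3 to 95.3 RPM) was mostly TFAP2A. Cardiomyocyte genes summed to 32.4 to 63 RPM against 4.03 to 33.5 RPM with MYH6, MYL4 and TTN under 5 RPM. The part of these markers in the results above was not tested. None of 15 proliferation genes and none of 7 measured p53 targets was counted as higher or lower, and of 8 immediate early genes JUN alone was higher (9.71 to 23.4 against 3.51 to 6.51 RPM).

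Without the members labelled BTAG, each list's count of higher and of lower genes moved by at most 1, but fewer members of some lists passed the filter. Of the genes named above, GABRP, GDF6, LAMA1, TGFBR2, SPRY1, ANGPT1, HOXA11 and JUN were no longer counted. GATA4 and SNAI1 were then counted as lower in the mesoderm and mesenchymal lists, and CDX1 in the HOX and CDX list. The median of BMP ligands, receptors and antagonists was 0.31 over 12 measured genes, against 1.397 over 14 with all members. Other medians also moved down: HOX and CDX genes to 1.26 over 10 measured and collagens to 0.61 over 9, from 1.04 over 13. TGF-beta and NODAL genes came to -0.04 over 6, from 0.53 over 8, and endothelial and blood genes to -0.76 over 4, from 1.37 over 5. Those of mesoderm factors (4.01 over 14) and amnion genes (3.07 over 11) moved up.

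Ranked by size among genes with a symbol other than a LOC name, the 10 largest positive differences were in CXCL12, BMP4, IGFBP5, LIX1, PENK, SPNS2, RGS4, MEIS2, DACT1 and TPM1. SPNS2, an exporter of sphingosine 1-phosphate, was 33.9, 49.9, 75.8 and 300.8 RPM against at most 1.46 RPM. DACT1, an intracellular modulator of WNT signalling, was 121, 80, 242 and 152 RPM against at most 4.65 RPM. PENK, which encodes enkephalin peptides, was 63, 153 and 133 RPM in the first 3 libraries and 4509 RPM in GK15 BTAG d4 replicate 2, so 1 library stood far above the other 3. The 10 largest negative differences were in FGFBP3, NANOG, CALB1, NMU, OTX2, AP3B2, SOX17, IL6R, PRDM1 and CRHBP. FGFBP3, which releases FGF from the matrix, was at most 6.72 RPM against 95 to 829 RPM (-6.78 ± 0.63), and CALB1, a calcium-binding protein, at most 3.3 RPM against 123 to 378 RPM. IL6R, a cytokine receptor chain, was at most 1.14 RPM against 40.9 to 249 RPM.

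The gates as labelled were compared next, AG mid (4 libraries) against BTAG positive (8) on days 2 and 4, with medium and day as covariates. Using every library under its label, limma called 0 of 10055 genes (0.0%) at an adjusted p under 0.05 and a log2 difference of at least 1, and 141 had an unadjusted p under 0.05. With edgeR the count was 0, and with DESeq2 it was 4. The 4 genes, named after their values were seen, were SH2D4B, with a mean of 40.2 RPM in AG mid and 6.21 RPM in BTAG libraries (DESeq2 adjusted p = 0.00397), and 3 that were lower in AG mid. TMEM229A averaged 66.3 against 295 RPM, THBS2, a matrix protein, 38.4 against 158 RPM, and SLC39A8, a metal ion transporter, 14.1 against 105.4 RPM (adjusted p = 0.0124, 0.00953 and 0.00863). Leaving out GK15 BTAG d2 replicate 2 gave 2 calls. When the 4 libraries whose PRDM1 contradicts the gate were left out, 2 AG mid libraries against 6 BTAG libraries gave 511 higher and 621 lower genes of 9564 (5.34% and 6.49%). Since PRDM1 itself decided which libraries were left out, these calls describe the same contrast as the rule and support nothing beyond it. Without GK15 AG mid d4 replicate 1 the count fell to 542, of which 147 were higher.

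Next came the change from day 2 to day 4 within PRDM1-low cells. The rule that chose these libraries did not use the day. It did use PRDM1 and SOX2, and both were lower in the set on day 4. Genes that act or move with them are therefore not independent of the rule. The day change was tested with limma in a fit of all 10 libraries with medium as a covariate, 2 libraries a day. Of 9917 genes, 157 rose and 149 fell (1.58% and 1.5%, or 3.09% in either direction). Both days hold 1 library that contradicts its gate, only day 2 holds an aRB27 library, and only day 4 holds a library whose title carries the code MS134. Hence the medium and this code cannot be told apart from the day within the PRDM1-low set alone. The counts moved with single libraries: 9 rose and 12 fell without GK15 BTAG d2 replicate 2, 71 and 47 without aRB27 AG mid d2, and 342 and 510 without GK15 AG mid d4. Without the double-positive GK15 BTAG d2 replicate 1 a total of 186 was called. Without both members labelled BTAG, 15 rose and 45 fell. Of 65 named or listed genes called, PRDM1 included, 52 lost the call in at least 1 of the 10 fits that left out 1 library. The other 13 comprise 9 that were called in all 10 fits and 4 (PMP22, TGFBI, LGR5 and ESRRG) that were called in the 8 fits that measured them.

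The 9 genes were RGS4, KRT18, DSP, SOX17, NANOG, T, PDPN, FST and GREM1. The 4 genes passed the filter only through the day on which they were high, so leaving out either library of that day gave no test of them. Without both members labelled BTAG, RGS4 lost its call (adjusted p = 0.0907) and PMP22, TGFBI, LGR5 and ESRRG did not pass the filter. PMP22, a membrane protein of peripheral myelin, was 0 in both day 2 libraries and 344 and 108 RPM on day 4 (adjusted p = 0.000877), at least 396-fold higher against a floor of 3 reads over the 2 libraries. TGFBI rose by 6.77 ± 0.63 (adjusted p = 0.000644) from the levels given above. RGS4, a regulator of G-protein signalling, went from 20.3 and 10.3 to 351 and 436 RPM, KRT18 from 931 and 654 to 4229 and 3463 RPM, and DSP, the desmosome protein desmoplakin, from 81.1 and 33.8 to 417 and 333 RPM. Day 4 libraries exceeded day 2 libraries in each.

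The genes that fell included germ cell and pluripotency genes, and PRDM1 fell with them. As SOX17 and TFAP2C are known to act with PRDM1, these falls are not independent of the rule. PRDM1 itself left aside, 5 of 14 measured germ cell genes fell, and of 9 pluripotency genes 5 fell, against 2 and 1 without GK15 BTAG d2 replicate 2. SOX17 fell by 3.77 ± 0.46 (log2, adjusted p = 0.00237), NANOG by 3.52 ± 0.36 (0.000926), T by 3.77 ± 0.33 (0.000432) and PDPN, a surface glycoprotein of germ cells, by 1.99 ± 0.17 (0.000432), from 353 and 277 to 82.2 and 86.7 RPM. FST fell by 2.96 ± 0.43 and GREM1 by 4.63 ± 0.53. LGR5, a receptor that amplifies WNT signals, was 64 and 65.2 RPM on day 2 and 2.39 and 0.38 RPM on day 4, and ESRRG, an orphan nuclear receptor, 45.8 and 18.6 RPM and then 0.3 and 0 RPM. LGR5 was at most 1.25 RPM in the double-positive set, so it stood far above that range on day 2 and close to it on day 4.

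PITX1, COL3A1 and COL5A2 also had large day changes. They passed the filter only through the PRDM1-low libraries of day 4, where they were high, so leaving out either gave no test of them. They lost their call when GK15 BTAG d2 replicate 2 was left out, which leaves 1 library on day 2. Their log2 changes then stayed of similar size, 5.82 for PITX1, 6.20 for COL3A1 and 5.76 for COL5A2. PITX1, a hindlimb and stomodeum homeobox factor, was 0 and 2.06 RPM on day 2 and 42.1 and 207 RPM on day 4 (6.29 ± 0.88, adjusted p = 0.00484, and 0.12 without that library). COL3A1, a fibrillar collagen, was 0 in both day 2 libraries and 98.5 and 38.6 RPM on day 4, at least 120.02-fold higher by the same floor (adjusted p = 0.00209, and 0.0589 without it), and COL5A2 rose by 5.62 ± 0.83 (0.00601, and 0.12). Of 13 measured collagens, some of which passed the filter only through day 4, 7 rose and none fell, and the listed median was 2.12. Without that library no call held, with 12 collagens measured and a median of 2.165. Without both members labelled BTAG 9 were measured, with a median of 1.802, and COL6A3 alone kept its call. Epithelial genes gave 5 of 10 rising (EPCAM, KRT8, KRT18, KRT19 and DSP), and 2 of 10 under each of those alternatives.

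CLDN10, a tight junction protein, was 389.6 and 480.3 RPM on day 2 and 15.2 and 5.3 RPM on day 4 (-5.84 ± 1.04, adjusted p = 0.013). Its call was lost without GK15 BTAG d2 replicate 2 (0.128), without aRB27 AG mid d2 (0.0912) and without both members labelled BTAG (0.174). The double-positive libraries ranged from 0.58 to 16.3 RPM, so CLDN10 stood above them in PRDM1-low cells of day 2 and overlapped them on day 4. WNT8A, a WNT ligand, HP (haptoglobin) and ZIC2, a neural and epiblast factor, completed the 5 largest falls (-5.37 ± 0.88, -5.10 ± 0.99 and -4.85 ± 0.84, with adjusted p = 0.00893, 0.018 and 0.0117). Without GK15 BTAG d2 replicate 2 their adjusted p were 0.265, 0.12 and 0.239, at log2 changes of -4.26, -6.46 and -4.58. HP (0.132) and ZIC2 (0.0567) also lost the call without aRB27 AG mid d2, and HP without GK15 BTAG d4 replicate 2 (0.0562). Without both members labelled BTAG the adjusted p of WNT8A, HP and ZIC2 were 0.206, 0.164 and 0.214. None of 9 BMP targets and none of 12 measured genes of the WNT list, which does not hold WNT8A, was called between the days. Without GK15 AG mid d4, however, SMAD6, BAMBI, WNT5B and DKK1 rose and SP5 fell.

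Finally, the day change in PRDM1-low cells was tested against that in double-positive cells as an interaction in the same fit. The change was more positive for 180 genes and more negative for 130 of 9917 (1.82% and 1.31%, or 3.13% in either direction). Without GK15 BTAG d2 replicate 2 these were 14 and 11, without aRB27 AG mid d2 77 and 43, without GK15 AG mid d4 456 and 463, and without both members labelled BTAG 23 and 48. Leaving out any of 5 double-positive libraries also moved the total by over 1.5 times, to 132 (GK15 BTAG d4 replicate 1), 169 (aRB27 BTAG d2 replicate 2), 187 and 193 (aRB27 BTAG d4 replicates 2 and 1) and 190 (GK15 BTAG d2 replicate 1). Of 54 named or listed genes called, 41 lost the call in at least 1 of 10 fits that left out 1 library. In all 10 fits 8 were called (KRT18, B2M, TNC, PDPN, T, NANOG, GREM1 and CTSV), and 5 (PMP22, TGFBI, PLAGL1, GPM6B and ESRRG) in the 8 fits that measured them, the other 2 giving no test. Each of the 5 passed the filter through only 2 libraries, and none passed it without both members labelled BTAG. For PMP22 and TGFBI these were the PRDM1-low libraries of day 4, and for ESRRG those of day 2, where they were high.

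KRT18 rose in PRDM1-low cells, as above, while the double-positive libraries held 271 to 360.3 RPM on day 2 and 119 to 153 RPM on day 4 (log2 difference of changes 3.36 ± 0.27, adjusted p = 0.000472). B2M, the invariant subunit of class I MHC molecules, was 597 and 530 RPM on day 2 and 681 and 739 RPM on day 4 in PRDM1-low cells. In double-positive cells it was 336 to 473 RPM on day 2 and 23.7 to 49.7 RPM on day 4, and the changes differed by 3.69 ± 0.37 (adjusted p = 0.00144). TNC, the matrix protein tenascin-C, was 25.9 and 19 RPM on day 2 and 189 and 181 RPM on day 4 in PRDM1-low cells (difference 4.81 ± 0.52, adjusted p = 0.00181). PMP22, TGFBI, PLAGL1, a zinc finger factor, and GPM6B, a membrane glycoprotein, had differences of 7.94, 6.85, 6.37 and 6.44. RGS5 had a difference of 5.98 ± 1.05 (adjusted p = 0.0153), a call lost without GK15 BTAG d2 replicate 2 (0.117), aRB27 AG mid d2 (0.0596) or GK15 BTAG d4 replicate 1 (0.0677).

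Several changes were more negative in PRDM1-low cells. PRDM1, which chose the sets, itself fell from day 2 to day 4 in these cells. Genes below that act or move with PRDM1 are therefore not independent of the rule. T fell in them, while the double-positive libraries held 231 to 338 RPM on day 2 and 377 to 730 RPM on day 4 (-4.59 ± 0.41, adjusted p = 0.00068). For NANOG the difference was -4.23 ± 0.46 (adjusted p = 0.00181). GREM1 (-5.40 ± 0.66, adjusted p = 0.00362) and CTSV (-5.33 ± 0.60, 0.00229) differed likewise. CTSV, a lysosomal protease, was 322 and 139 RPM on day 2 and 53.3 and 35.95 RPM on day 4 in PRDM1-low cells, while double-positive cells held 94.7 to 309 RPM on day 2 and 1106 to 1625 RPM on day 4. ESRRG and MAMLD1 had differences of -6.04 ± 1.07 (0.0154) and -6.06 ± 0.98 (0.0114), and MAMLD1 lost its call without GK15 BTAG d2 replicate 2 (0.092), GK15 BTAG d4 replicate 1 (0.0677) or both members labelled BTAG (0.0996). CLDN10 also differed (-5.82 ± 1.31, adjusted p = 0.0413) but was called in only 3 of 10 fits that left out 1 library (highest adjusted p 0.181, without GK15 BTAG d2 replicate 2).

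**Figure D5:**
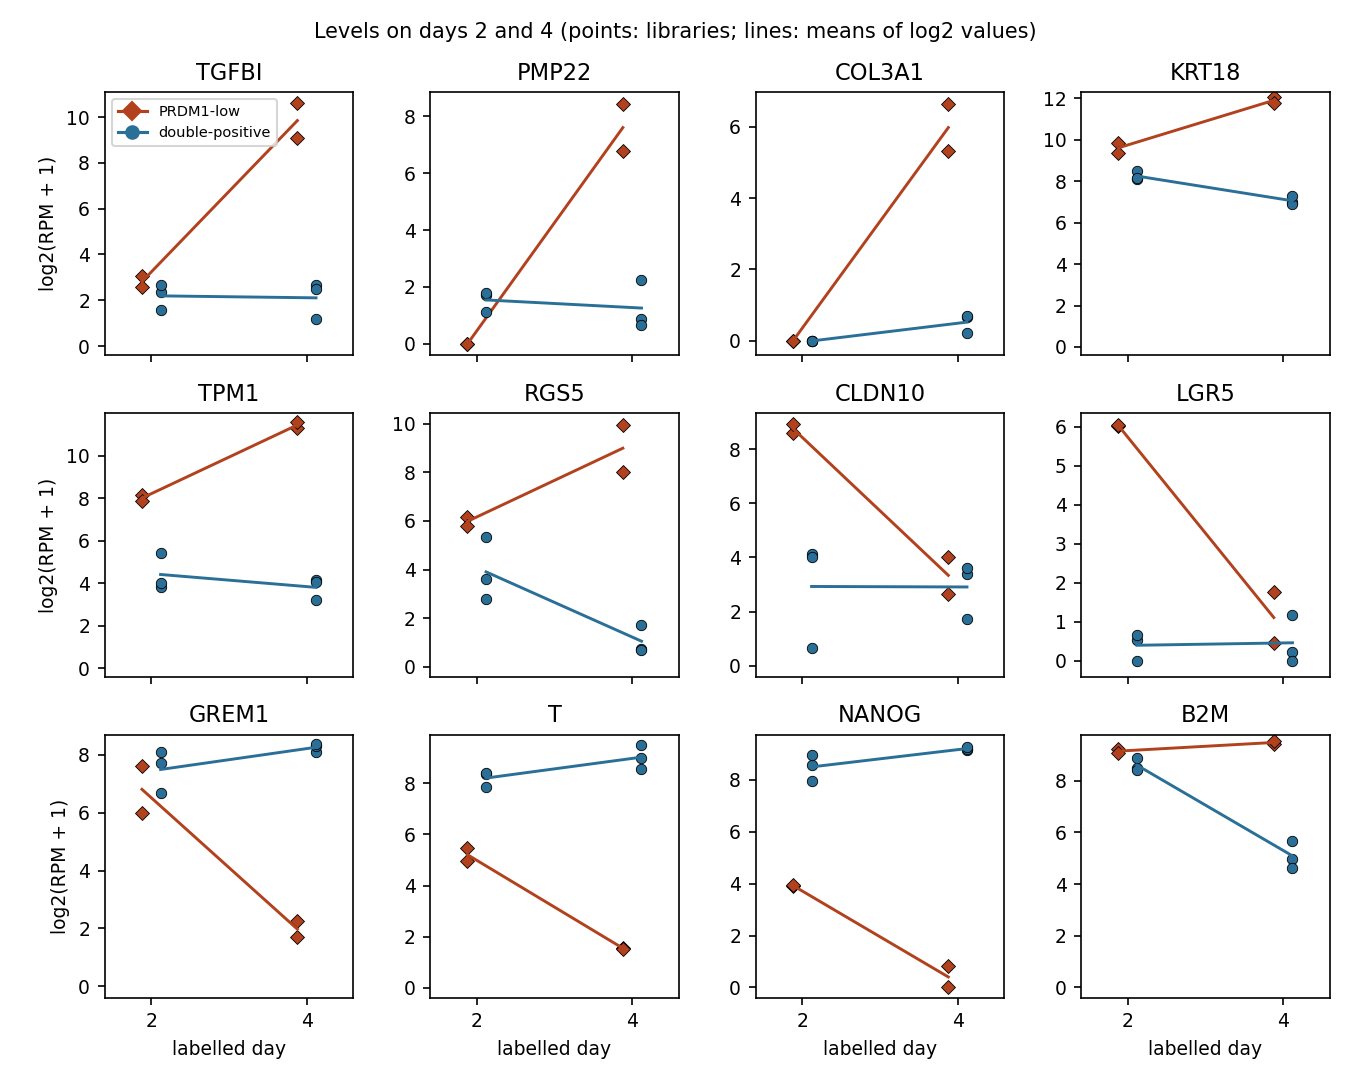
Log2(RPM + 1) of 12 genes by labelled day in PRDM1-low (diamonds, 2 libraries a day) and double-positive cells (circles, 3 libraries a day), with lines joining the means of log2 values. TGFBI, PMP22 and COL3A1 are at or under 7.34 RPM in PRDM1-low cells on day 2, and CLDN10 comes down to the double-positive range on day 4.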

How the data were processed

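The authors deposited RPM values from 3′ sequencing of bulk RNA, 1 table per species, per the file headers. Cutadapt 1.3, TopHat 1.4.1 and Cufflinks 2.2.0 appear, with no role stated, among the submitters' processing notes. A monkey genome build was not given in the sources used here, and no coordinates are printed. In 30 monkey columns deposited RPM values were recorded as whole multiples of the value of 1 read. In the 10 compared libraries 99.6% to 99.7% of values up to 100 reads came out whole (tolerance 0.1 reads). On these reads edgeR 4.0.16 and DESeq2 1.42.0 were run as alternatives. They called 290 and 525 day changes and 294 and 554 differences between day changes.

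The members and gene lists were chosen with earlier results of these data known. Tests used limma 3.58.1 (R 4.3.3, with trend) on log2(RPM + 1). The fits of the tested comparisons, but not the other steps, were also run on simulated data. There limma recovered 30.7% of day changes of log2 1.5 and 96.9% of those of log2 2.5. For differences between day changes these shares were 5.7% and 75%, so smaller changes could be missed. The shares hold for those data only, and their spread was not tested against that of the libraries. In the libraries some day changes above log2 2.5 in PRDM1-low cells were not called by limma. Among them were RGS5 (3.13 ± 0.83, adjusted p = 0.0807) and HOXB6 (3.01 ± 0.93, 0.134). Others of similar size were called, such as TPM1 (3.03 ± 0.37, 0.00234). Adjustment was Benjamini-Hochberg over all genes tested. Calls needed an adjusted p under 0.05 and a log2 value of at least 1. This scale understates changes of low genes. Named were germ cell and pluripotency genes, the 4 markers, up to 4 members per list, the 10 largest differences in each direction and the 5 largest called changes per test. Other list members were named after their values were seen. Entries with LOC names (9295 of 26018) were tested but not named. Alternatives changed the pseudocount, filter, scaling, prior, covariates, tool and libraries. Leaving out both members labelled BTAG in the day tests, and the MS162 libraries alone for the difference of day changes, were chosen after seeing the data.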

Additional observations from a re-analysis of the deposited data

Results flagged for a closer look

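Dixon's test was run in 200 checks (100 named genes in 2 sets of libraries). Its rate of 1 in 20 by chance does not apply, because in several checks the other libraries were tied, as for OTX2 at 0 RPM. In 15 checks 1 library stood apart from the others of its set. In the PRDM1-low set these were GK15 AG mid d4 replicate 1 for OTX2 (0.3 RPM), SOSTDC1 (0.3 RPM) and CRHBP (0.45 RPM), GK15 BTAG d4 replicate 2 for TGFBR2 (53.4 RPM), GK15 BTAG d2 replicate 2 for DKK4 (1.4 RPM) and aRB27 AG mid d2 for IL6R (0 RPM). Except for TGFBR2, these levels were at most 1.4 RPM. In the double-positive set GK15 BTAG d4 replicate 1 stood apart for PDGFRA (9 RPM), PRRX1 (1.67 RPM), WNT6 (0.33 RPM) and GDF6 (0.17 RPM). The other double-positive libraries were aRB27 BTAG d4 replicate 2 for DPPA4 (342.5 RPM), aRB27 BTAG d2 replicate 1 for MIXL1 (94.7 RPM), aRB27 BTAG d4 replicate 1 for HAND2 (3.45 RPM) and WNT8A (1.15 RPM), and aRB27 BTAG d2 replicate 2 for HOXB2 (1.95 RPM).

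The change from day 2 to day 4 differed between PRDM1-low and double-positive cells for 33 of the 100 genes named by the rule (limma interaction, adjusted p under 0.05, log2 values follow). List members outside the rule, such as TNC, are not among them. It was more positive in PRDM1-low cells for 18. These were PMP22 7.94, TGFBI 6.85, GPM6B 6.44, PLAGL1 6.37, RGS5 5.98, PITX1 5.88, COL3A1 5.53, COL5A2 5.22, LAMA1 4.01, RGS4 3.91, B2M 3.69, TPM1 3.64, NPNT 3.44, KRT18 3.36, IGFBP5 3.18, COL18A1 2.55, CDH11 2.55 and KRT8 2.10. It was more negative for MAMLD1 -6.06, ESRRG -6.04, CLDN10 -5.82, GREM1 -5.40, CTSV -5.33, LGR5 -4.96, T -4.59, NANOG -4.23, CRHBP -3.62, SOX17 -3.50, POU5F1 -3.10, L1TD1 -2.33, DPPA4 -2.13, TFAP2C -1.93 and HPGD -1.92. As above, germ cell and pluripotency genes among them are not independent of PRDM1, which chose the sets. Of the 33 genes, 22 lost the call in at least 1 fit that left out 1 library. In all 10 such fits KRT18, B2M, T, NANOG, GREM1 and CTSV were called, and PMP22, TGFBI, GPM6B, PLAGL1 and ESRRG in the 8 fits that measured them. POU5F1 and NPNT were called in 2 of 10 fits, LAMA1, DPPA4 and CLDN10 in 3, TFAP2C in 4, KRT8 and IGFBP5 in 5, RGS5 and CRHBP in 7 and MAMLD1 in 8. COL5A2 was called in 2 of 8 fits, PITX1 in 5 and COL3A1 and LGR5 in 6. The others, SOX17, HPGD, L1TD1, CDH11, TPM1, COL18A1 and RGS4, were called in 9 of 10.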

How the results depend on the processing

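No paired analysis was possible because the labels carry no replicate numbers (those used here follow accession order). No named gene that was called or counted changed direction under the alternatives run, and 199 values in 63 genes of the contrast between the sets moved by more than 1 SD. The balance did shift: quantile normalization gave 530 higher and 560 lower between the sets, against 593 and 500. Requiring a mean of at least 20 RPM, which tests fewer genes, gave 686 genes (341 higher) between PRDM1-low and double-positive cells, 736 between the gates in libraries that match them, 186 day changes and 192 differences between day changes. Day 4 alone, with fewer libraries, gave 2156 between the sets. DESeq2 gave 4 genes between the gates as labelled, 525 day changes and 554 differences between day changes. The MS162 libraries alone gave 852 and 919 of the last 2, and leaving out both members labelled BTAG 60 and 71. Leaving out 1 library at a time gave 1075 to 1246 genes between the sets, 0 to 2 between the gates as labelled, 542 to 1227 in libraries that match their gate, 21 to 852 day changes and 25 to 919 differences. The lowest day counts were without GK15 BTAG d2 replicate 2 and the highest without GK15 AG mid d4 replicate 1. The cause was not tested. Among the 10 named day changes, 19 alternative values in 8 genes lost the call and 184 kept it, HP also with a pseudocount of 0.1 and without covariates, and PITX1 with the mean of at least 20 RPM. At least 1 of PMP22, TGFBI and LGR5 is among the 8 genes, though they kept the call in the fits that left out 1 library and measured them. For the 10 named differences between day changes 18 values in 3 genes lost the call and 190 kept it. Depth limits low genes, since 1 read was 0.149 to 0.623 RPM.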

Other observations

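Some genes that belong to no list described above, or to lists described only in part, also separated the libraries. NPNT (nephronectin, a matrix ligand of integrins) had no read in any of the 6 double-positive libraries and was 10.49, 19, 208 and 110.1 RPM in the PRDM1-low ones. That is at least 440.03-fold higher (3 reads over the 6 libraries), and the PRDM1-low libraries of day 4 held more than those of day 2. TFCP2L1, a transcription factor of naive pluripotent and germ cells, had no read in any PRDM1-low library. In double-positive cells it was 0 to 3.9 RPM on day 2 and 34.3 to 77.8 RPM on day 4. SALL1, a zinc finger factor, was 182, 182, 130.3 and 139 RPM against 16.7 to 82.3 RPM. HGF, a growth factor for epithelia, was 3.15, 11.6, 5.98 and 169 RPM against 0.49 to 2.92 RPM, so the library labelled GK15 BTAG d4 replicate 2 stood above the rest, as it did for PENK.

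TEK, the angiopoietin receptor, is on the endothelial and blood list and rose in PRDM1-low cells, from 1.05 and 1.65 RPM on day 2 to 36.8 and 70 RPM on day 4 (limma, adjusted p = 0.00358, and 0.0648 without GK15 BTAG d2 replicate 2). TEK passed the filter only through its day 4 levels, so leaving out either library of that day gave no test of it. KDR, a VEGF receptor, was 26.6 and 64.8 RPM on day 2 and 145 and 93.1 RPM on day 4 (limma, adjusted p = 0.319). VTCN1, an amnion gene, was 7.69 and 2.48 RPM and then 47.5 and 20.4 RPM, and its change differed from that in double-positive cells by 5.30 ± 0.73 (adjusted p = 0.00509, and 0.054 without GK15 BTAG d2 replicate 2).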
